A study of Bos taurus with 18 samples.

Results

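EFEMP1, PCOLCE2, GFPT2, SCARA5 and RCN1 are 5 genes of fibroblasts and extracellular matrix among the 24616 genes measured in the rumen papillae of lactating dairy cows. They were taken by name from the genes that the study listed as differing between forage diets. EFEMP1, PCOLCE2, GFPT2 and SCARA5 were on its lists for AH vs. CS and for RS vs. CS, and RCN1 was on the list for AH vs. CS. Their differences in those comparisons therefore chose them and are given below as a description, without a test. AH vs. RS was not used in choosing them, although its cows entered those comparisons. All 5 passed the filter on low values, as did 13284 genes in all.

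The papillae came from 18 Holstein cows, 6 per diet, slaughtered at the end of a feeding trial. The main forage was alfalfa hay in the AH diet (titled AL in the labels), corn stover in the CS diet and rice straw in the RS diet. All diets also held the same amounts of concentrate and corn silage. Values are CPM, the reads of a gene scaled to the total of that cow over annotated genes, and cows are written with their diet and number in the labels, so that AH3 is cow 3 of the AH diet. The libraries held 16099131 to 32252177 reads on genes, and 3 reads, the most that a count of 0 allows, were worth 0.0930 to 0.186 CPM. No member was at 0 in any cow. The smallest counts were 11 reads for SCARA5 in CS2 (95% exact Poisson interval 5.49 to 19.7, counting error only) and 12 reads for GFPT2 in CS1 (6.20 to 21.0).

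A rumen papilla is a fold of stratified squamous epithelium over a core of connective tissue with vessels, nerves and immune cells. Fibroblasts of the core secrete collagens, proteoglycans, elastic fibres and the proteins that process them. EFEMP1 (fibulin-3) is a secreted glycoprotein of the matrix. PCOLCE2 is a secreted enhancer of the proteinase that trims procollagen before fibrils form. GFPT2 is an enzyme of the first, rate-limiting step of the hexosamine pathway, which supplies the sugars of glycoproteins and hyaluronan. SCARA5 is a class A scavenger receptor that binds ferritin. RCN1 (reticulocalbin 1) is a calcium-binding protein of the endoplasmic reticulum and is made by many cell types.

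The label of the group could be checked against few markers, because the files pair no identifiers with names and the study's list of differing genes names 73 of them. Of 7 fibroblast markers, DPT (dermatopontin, a small protein of the collagen matrix) was named there. Its level ran from 3.95 CPM to 266 CPM over the 18 cows, and within diets it followed the members (Pearson's r = 0.94 with their mean over 18 cows). DPT was on that list because it differed in these same cows, as the members did. Its r is therefore a description and no independent check of the label. In whole papillae, fewer fibroblasts and less RNA per fibroblast cannot be told apart.

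EFEMP1 lay between 3.73 CPM in CS2 and 219 CPM in RS3, a 58.8-fold range. In the AH cows it had a lowest value of 3.90 CPM, a median of 17.4 CPM and a highest of 192.5 CPM. The CS cows ran from 3.73 CPM through a median of 12.4 CPM to 38.4 CPM. The RS cows ran from 11.8 CPM through a median of 14.6 CPM to 219 CPM. The diets overlapped over most of their range, and AH3, AH2 (60.8 CPM), RS3 and RS4 (81.9 CPM) stood above every CS cow.

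PCOLCE2 ranged 61.5-fold, from 2.09 CPM in CS1 to 129 CPM in RS3. Its lowest, median and highest values were 2.16, 5.86 and 79.6 CPM in AH. They were 2.09, 4.14 and 12.7 CPM in CS. They were 3.07, 8.97 and 129 CPM in RS. The diets overlapped, and AH3 was 79.6 CPM where the next AH cow had 14.8 CPM.

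GFPT2 ranged 116-fold. It was 0.596 CPM in AH4 and 68.9 CPM in RS3, and its median was 6.23 CPM in RS, 2.88 CPM in AH and 1.48 CPM in CS. The lowest RS cow had 3.15 CPM, above the medians of both other diets, while the highest CS cow had 11.7 CPM. SCARA5 had the widest range of the 5, 208-fold, from 0.683 CPM in CS2 to 142 CPM in RS3. Its median was 11.1 CPM in RS, 4.56 CPM in AH and 2.97 CPM in CS, and its highest AH value was 125.9 CPM. All 3 diets had at least 1 cow under 2 CPM for SCARA5 and at least 1 above 28 CPM.

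RCN1 was the steadiest member, with an 11.4-fold range from 8.82 CPM in CS1 to 100.4 CPM in AH3. The AH cows had a lowest value of 19.7 CPM and a median of 29.5 CPM. The CS cows had a median of 23.3 CPM and a highest value of 31.1 CPM. The RS cows had a median of 27.4 CPM, a lowest value of 12.7 CPM and a highest of 96.9 CPM. Here too the diets overlapped, and AH3 and RS3 stood above all other cows.

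**Figure D1:**
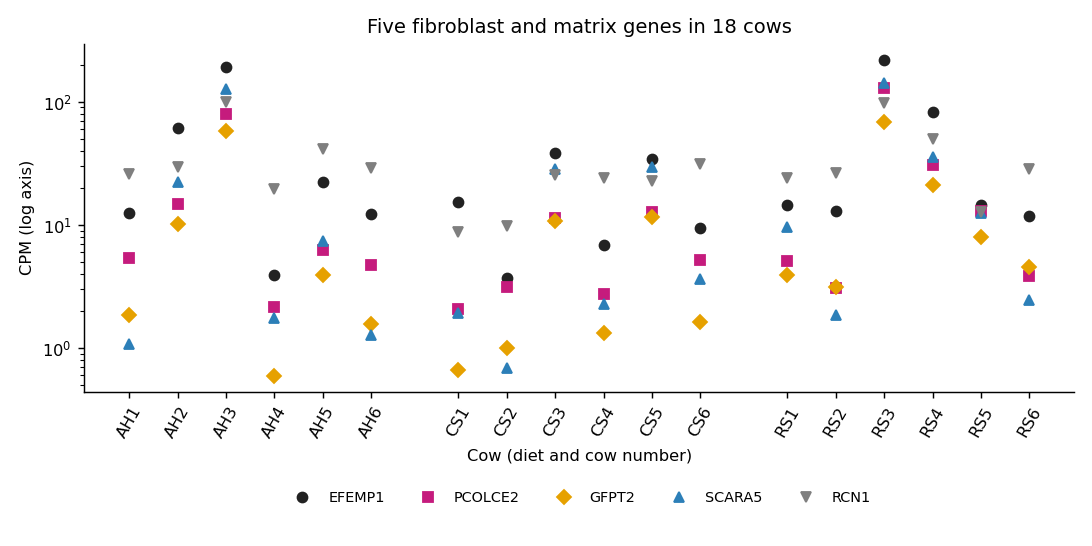
CPM of the 5 genes (log axis) in each of the 18 cows, grouped by diet; each point is 1 cow and 1 gene. AH3 and RS3 were the 2 highest cows for all 5 genes and RS4 came next, while the remaining cows of the 3 diets overlapped.

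The same cows were high for every member. RS3 was the highest cow for EFEMP1, PCOLCE2, GFPT2 and SCARA5 and AH3 for RCN1, each was second where the other was first, and RS4 came next for all 5. Of the CPM summed over 18 cows, AH3 and RS3 held 53.7% for EFEMP1, 62.3% for PCOLCE2, 59.6% for GFPT2, 62.3% for SCARA5 and 32.5% for RCN1. To put the members on one scale, a stroma score was given to each cow, the mean over the 5 genes of log2(CPM + 0.5) after the mean of each gene over the 18 cows was removed. The score was 3.38 in RS3, 3.13 in AH3, 1.76 in RS4 and 0.98 in AH2, and lowest in AH4 (-1.72) and CS2 (-1.93). Its range of 5.31 is a 39.6-fold difference.

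Within diets the cows high for one member were high for the others. The ratios of means that chose the members were carried in part by AH3 and RS3, which favours genes that are high together in these cows, so the correlations over all 18 cows are a description, with no test. With the diet means removed, the 6 pairs among EFEMP1, PCOLCE2, GFPT2 and SCARA5 had Pearson's r of 0.92 to 0.96 and Spearman's rho of 0.81 to 0.93. In each diet alone, these 6 pairs had r of 0.93 to 0.99 in AH, 0.77 to 0.97 in CS and 0.92 to 0.99 in RS. The 4 pairs with RCN1 had r of 0.72 to 0.77 and rho of 0.63 to 0.72.

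Without AH3 and RS3, which lie farthest from the median, the 6 pairs without RCN1 had r of 0.85 to 0.94 over 16 cows (permutation of cows within diets, 100000 resamples, two-sided, Benjamini-Hochberg adjusted permutation p over 10 pairs of 0.0001 to 0.00055). The 4 pairs with RCN1 fell to r of 0.45 to 0.52 and did not pass the threshold (adjusted permutation p of 0.0766 to 0.113). AH3 and RS3 were left out after their values were seen. RS4 and AH2 stayed in and entered the ratios of means that chose the members. These tests are therefore not free of that choice. The relation of RCN1 with the other members was weaker without AH3 and RS3, and in the CS cows, which include neither, its r with the other members was 0.35 to 0.61. The first principal component of the 5 diet-centred genes held 89.4% of their variance, and 79.6% without AH3 and RS3.

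The closest pair was PCOLCE2 and GFPT2, with r of 0.96 and an SD of their log2 ratio over cows of 0.52, against SDs of 1.62 and 1.80 for the log2 values of the single genes. The members did not move by equal steps. Against the score of the other 4 within diets, SCARA5 changed by 1.51 log2 units per unit, GFPT2 by 1.13, EFEMP1 by 1.02, PCOLCE2 by 1.00 and RCN1 by 0.37. The matching r were 0.95, 0.98, 0.95, 0.96 and 0.76, and without AH3 and RS3 they were 0.91, 0.96, 0.89, 0.91 and 0.50.

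**Figure D2:**
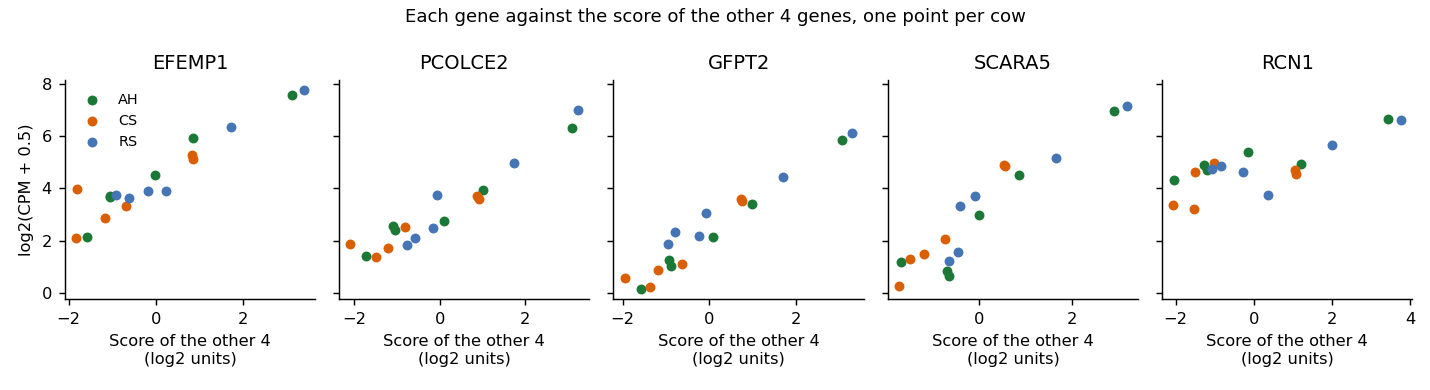
log2(CPM + 0.5) of each member (y axis) against the score of the other 4 members (x axis, log2 units), 1 point per cow coloured by diet. The points of the 3 diets lie along one band for EFEMP1, PCOLCE2, GFPT2 and SCARA5, and those of RCN1 rise less steeply (0.37 log2 units per unit of the score, and 0.25 without AH3 and RS3).

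Little of the spread of the score lay between diets. Its mean was 0.069 ± 1.77 in AH, -0.64 ± 1.20 in CS and 0.57 ± 1.66 in RS (SD, n = 6 each). The score was higher by 0.71 in AH than in CS and by 1.21 in RS than in CS, and lower by 0.50 in AH than in RS, each with an SE of 0.90, where the pooled SD between cows of one diet was 1.56. The diets held 10.9% of the sum of squares of the score and the cows within diets 89.1%. Without AH3 and RS3, the score was higher in AH than in CS by 0.099 and in RS than in CS by 0.65. This removed the highest cow of AH and of RS but kept CS3, the highest of CS. Without cow 3 of each diet, left out after the values were seen, the mean score was -0.54 in AH, -0.93 in CS and 0.011 in RS. The comparisons share cows, since CS is the reference of both.

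The shares were then taken for each member, with the score of the other 4 so that no gene was set against itself. Diet alone took 8.76% of the spread of EFEMP1, 10.6% of PCOLCE2, 15.7% of GFPT2, 5.90% of SCARA5 and 21.4% of RCN1. The score of the other 4 alone took 90.3%, 92.5%, 94.2%, 88.1% and 57.8%. Diet added to that score took a further 0.462% for EFEMP1, 0.0465% for PCOLCE2, 2.09% for GFPT2, 2.42% for SCARA5 and 9.61% for RCN1. Over the other 13279 genes tested, the medians were 4.60% for diet alone, 9.76% for the score and 5.04% for diet added to the score, with 90th percentiles of 17.9%, 34.6% and 18.2%. What was left to neither was 3.66% for GFPT2 and 32.6% for RCN1, with the other members between them, against a median of 81.1% for the other genes. The choice of members favoured genes that are high together in AH3 and RS3, so a high share for the score was favoured in advance. The shares are a description, and the other genes were not chosen in that way. Without AH3 and RS3, the within-diet r of RCN1 with the score of the other 4 was 0.50, against 0.76 over 18 cows.

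**Figure D3:**
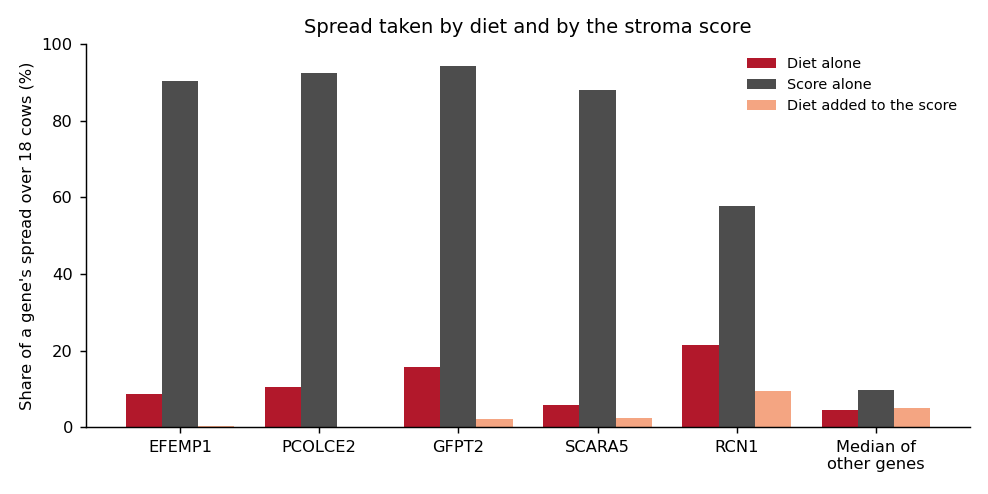
Share of each gene's sum of squares of log2(CPM + 0.5) over 18 cows (%) taken by diet alone, by the score alone and by diet added to the score; for a member the score is that of the other 4, and the last group is the median of the other 13279 genes. The score took 57.8% to 94.2% for the members and 9.76% at the median gene. The choice of members favoured genes high together in AH3 and RS3, which favours a high share for the score.

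In the model of all genes, no member was called in any comparison. A gene was called at a limma adjusted p under 0.05 with a ratio of mean CPM over 2-fold. In AH vs. CS this held for 0.00753% of the 13284 genes, and for AH vs. RS the share was also 0.00753%, in both the single gene S100A9 (a calcium-binding protein of neutrophils and stressed keratinocytes). It held for 0% in RS vs. CS, where 171 genes had an unadjusted p under 0.05. On the recovered reads, DESeq2 called 5, 7 and 0 genes in these comparisons and edgeR 1, 1 and 0. The count of 0 members in AH vs. CS and RS vs. CS is read no further, because those contrasts chose them.

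The log2 ratios of mean CPM of the members were above their mean differences in log2(CPM + 0.5) in AH vs. CS. For AH vs. CS, the log2 ratio of means was 1.50 for EFEMP1, 1.60 for PCOLCE2, 1.48 for GFPT2, 1.26 for SCARA5 and 1.02 for RCN1. The mean difference in log2(CPM + 0.5) was 0.82 ± 0.84 for EFEMP1, 0.78 ± 0.83 for PCOLCE2, 0.66 ± 0.89 for GFPT2, 0.38 ± 1.13 for SCARA5 and 0.92 ± 0.44 for RCN1 (± SE, 6 cows per diet). Without AH3 these became 0.22, 0.16, -0.054, -0.45 and 0.61, so GFPT2 and SCARA5 changed direction. The log2 ratios of means without AH3 were 0.32 for EFEMP1, 0.11 for PCOLCE2, -0.33 for GFPT2, -0.72 for SCARA5 and 0.52 for RCN1.

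EFEMP1 shows the pattern in CPM. Its mean was 50.7 ± 72.3 CPM in AH, 17.9 ± 14.7 CPM in CS and 59.1 ± 83.0 CPM in RS (SD, n = 6 each). Leaving out the highest cow of each diet gave means of 22.4, 13.9 and 27.1 CPM. For SCARA5 the means were 26.6 ± 49.3 CPM in AH, 11.1 ± 13.9 CPM in CS and 34.0 ± 54.3 CPM in RS, and 6.72, 7.38 and 12.4 CPM without the highest cow of each. For RCN1 they were 41.1 ± 29.9, 20.3 ± 8.98 and 39.7 ± 30.5 CPM, and 29.2, 18.2 and 28.2 CPM without the highest cow.

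For RS vs. CS the differences were higher in RS by 1.12 ± 0.84 for EFEMP1, 1.24 ± 0.83 for PCOLCE2, 1.68 ± 0.89 for GFPT2 and 1.23 ± 1.13 for SCARA5 in log2(CPM + 0.5). Without RS3 they were 0.54, 0.58, 1.13 and 0.54. RCN1 was not chosen on this contrast, but the CS cows that entered its choice are the reference here too. Its difference is thus not free of that choice. It was 0.80 ± 0.44 (95% interval -0.13 to 1.72, limma adjusted p = 1.00), and 0.48 without RS3.

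AH vs. RS itself was used for none of the members, and none of them passed. Their AH values entered their choice through AH vs. CS, so the differences here are not free of it. The differences were -0.30 for EFEMP1 (95% interval -2.06 to 1.46), -0.46 for PCOLCE2 (-2.19 to 1.27), -1.03 for GFPT2 (-2.89 to 0.84), -0.85 for SCARA5 (-3.21 to 1.52) and 0.12 for RCN1 (-0.80 to 1.04), each with a limma adjusted p of 1.00. EFEMP1 and PCOLCE2 changed direction without RS3 (0.28 and 0.20), and RCN1 without AH3 (-0.18). With AH3 and RS3 both left out, EFEMP1 had -0.32, PCOLCE2 -0.42 and RCN1 0.13.

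With the score of the other 4 in the model, the SE of every member fell. For AH vs. CS the differences became 0.12 ± 0.30 for EFEMP1, 0.083 ± 0.29 for PCOLCE2, -0.16 ± 0.25 for GFPT2, -0.81 ± 0.41 for SCARA5 and 0.67 ± 0.31 for RCN1. For RS vs. CS they became -0.14 ± 0.32, 0.032 ± 0.30, 0.45 ± 0.26, -0.60 ± 0.42 and 0.31 ± 0.32 in the same order. These 2 contrasts chose the members, so the values are a description. For AH vs. RS, GFPT2 was lower in AH at the same score (-0.61, 95% interval -1.13 to -0.084), but its adjusted p over all genes was 1.00.

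The score was made of genes chosen for differing between these diets. Removing it takes out spread between cows together with any diet difference that the members share, and these cannot be told apart.

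**Figure D4:**
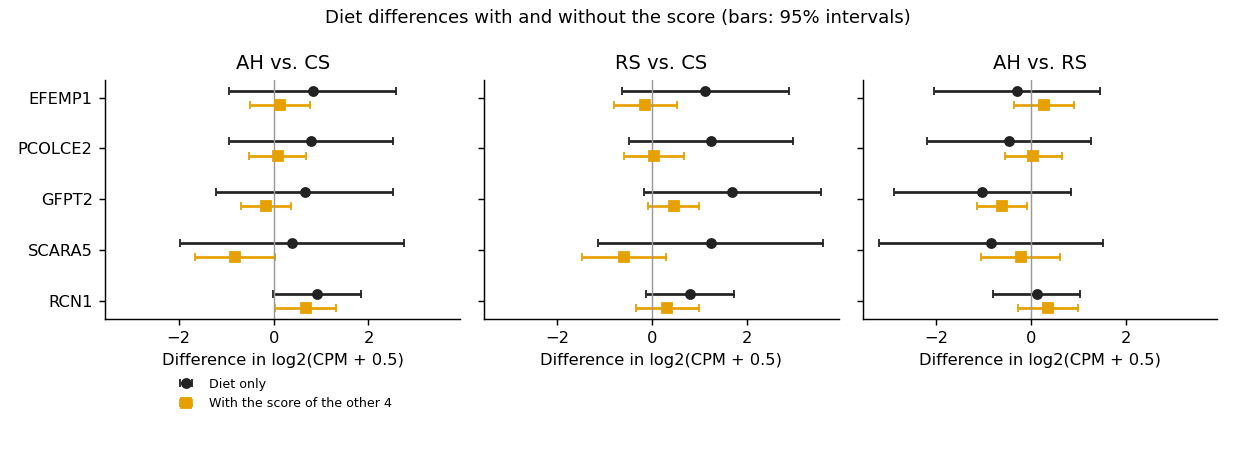
Diet differences of the members in log2(CPM + 0.5) (x axis) for AH vs. CS, RS vs. CS and AH vs. RS, from the model with diet only (circles) and with the score of the other 4 added (squares); bars are 95% intervals, not adjusted over genes. The intervals are narrower with the score, and those of EFEMP1 and PCOLCE2 centre near 0.

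Other genes of the connective tissue on the study's list followed the members. The score was set beside every other gene within diets, as a description over 18 cows that share libraries and the CPM scale. The median r was 0.21, and 66.2% of the 13279 genes had a positive r. An r above 0.8 was found for 216 genes (1.63%), an r below -0.8 for 0 and an r below -0.7 for 16. Without AH3 and RS3, 141 genes had an r above 0.8.

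All genes with a name came from the study's list, which was chosen on these same cows, so their place among all genes is a description. Among them, the highest r was that of PLXDC1 (0.95), a membrane protein known from tumour endothelium. It was followed by DPT (0.94), CXCL12 (0.94), a chemokine of stromal cells, SERPINF1 (0.94), a secreted inhibitor of vessel growth, and CRISPLD2 (0.94), a secreted glycoprotein. PLXDC1 was 26.2 CPM in AH3 and 41.8 CPM in RS3, and its medians were 2.90, 3.21 and 8.58 CPM on the AH, CS and RS diets. CXCL12 was 125.4 CPM in AH3 and 160.6 CPM in RS3, with medians of 20.2, 25.4 and 34.9 CPM. In each of them AH3 and RS3 were far above the median of their diet.

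The lowest r among named genes were those of DNAJA1 (-0.48) and HSPA1A (-0.45), a cochaperone and an inducible chaperone of the heat shock response, SLC14A1 (-0.43), a urea transporter, S100A8 (-0.40), the partner of S100A9, and Metazoa_SRP (-0.38), a signal recognition particle RNA. Without AH3 and RS3 they were -0.065, -0.17, -0.17, -0.47 and -0.21. HSPA1A was 348 CPM in AH3 and 223 CPM in RS3, where the diet medians were 1112 CPM in AH and 643 CPM in RS. DNAJA1 was 7.20 CPM in AH3 and 6.51 CPM in RS3, with medians of 40.0 CPM in AH and 12.8 CPM in RS. Part of this opposition was thus in the 2 cows with the highest scores.

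**Figure D5:**
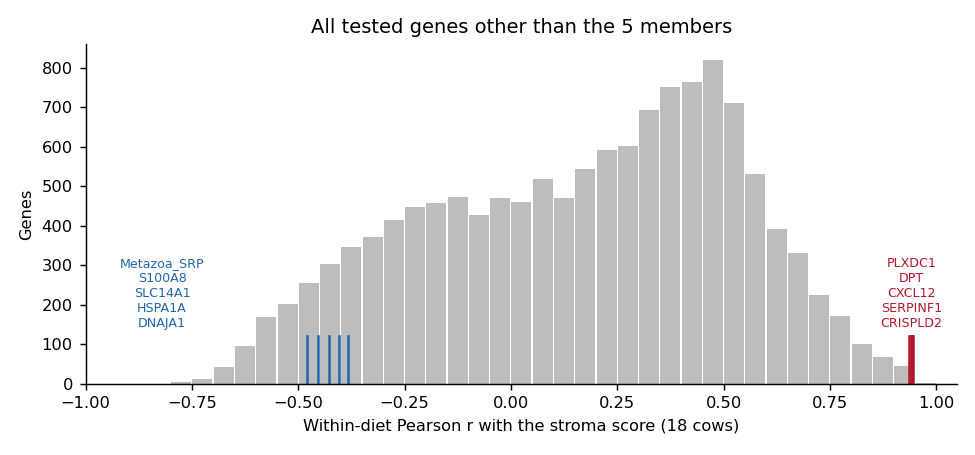
Number of genes (y axis) by their within-diet Pearson r with the stroma score over 18 cows (x axis), for the 13279 tested genes other than the members; lines mark the 5 named genes with the highest and the 5 with the lowest r. The named stromal genes lie at 0.94 to 0.95, in the upper tail, and the lowest named genes at -0.48 to -0.38. All named genes came from the study's list, which was chosen on these cows.

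The further genes of the matrix and of other cell types came from 18 lists with 137 symbols, of which 26 symbols in 10 lists could be paired with a measured gene. The study's own list of differing genes, chosen on these cows, held 12 other genes that were grouped here as stroma genes. The grouping was made here, with earlier results of these data known. Of these 12, 11 had an r above 0.8 with the score, and the median of the 12 was 0.90. Among the 68 named genes other than the members, 16 passed that limit, these 11 included. The share that passed it among all 13279 genes was 1.63%. The count of 11 thus depends on which named genes were put in the group, and it is a description. MGP, an inhibitor of calcification in matrix, had an r of 0.89 and FBN1, the fibrillin of elastic microfibrils, 0.92. CILP, a protein of cartilage and fibrous matrix, had 0.86. The complement genes C7 and C3 had 0.87 and 0.84. The exception was IGFBP3, which binds insulin-like growth factors, with an r of 0.16, and 0.65 without AH3 and RS3. It was 65.5 CPM in AH3 and 41.6 CPM in RS3, below the medians of 103 CPM in AH and 53.5 CPM in RS.

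None of these 12 genes was called between diets, and 0 of 12 is read against the background of 0.00753% and 0% given above. Their median difference in log2(CPM + 0.5) was 0.27 in AH vs. CS, 0.95 in RS vs. CS and -0.65 in AH vs. RS, where the median over all genes tested was 0.039, 0.0080 and 0.026. With the score in the model the medians were -0.26, 0.020 and -0.30, against 0.0051, -0.055 and 0.052 over all genes.

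Some markers of other cell types of the papilla core moved with the score, and others did so less or not. All of them were named on the study's list, which was chosen on these cows. LYVE1, of lymphatic endothelium, had an r of 0.86 and ran from 2.70 to 78.3 CPM. CADM3, of Schwann cells, had 0.91, CR2, of B cells and follicular dendritic cells, 0.85, and CD5L, of macrophages, 0.83. Without AH3 and RS3, r was 0.77 for LYVE1, 0.87 for CADM3, 0.69 for CR2 and 0.62 for CD5L. For the lists with 1 or 2 paired genes, summed CPM ran over 5.60 to 52.9 in AH, 2.70 to 22.0 in CS and 7.67 to 78.3 in RS for lymphatic endothelium (1 of 4), and over 6.93 to 74.2, 29.9 to 50.7 and 27.5 to 123 for macrophages (2 of 6). They ran over 3.40 to 322, 29.1 to 157.7 and 144 to 493 for the B lineage (2 of 7), over 0.459 to 10.6, 0.276 to 3.60 and 0.512 to 24.5 for Schwann cells (1 of 4), and over 156 to 823.5, 136 to 865 and 62.4 to 467 for adipocytes (1 of 4). FABP4 of the adipocyte list had an r of -0.12, AIF1 of the macrophage list 0.46 and IGLL1 of the B lineage list 0.62. Without AH3 and RS3 they had -0.10, 0.26 and 0.62. CD5L was at 0 in at least 1 cow, and no other of these markers was.

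Markers of the epithelium had lower r. The 7 paired genes of the 10 markers of differentiated keratinocytes had a median r of -0.038, between -0.40 for S100A8 and 0.39 for TGM3, the transglutaminase of the cornified envelope. Their summed CPM ran from 3207 to 5599 in AH, 6439 to 12567 in CS and 7296 to 13568 in RS, and KRT36 was at 0 in at least 1 cow. The gene called against AH in both comparisons, S100A9, belongs to this list, and its r with the score was 0.075. No symbol of the lists of collagen processing, hexosamine and hyaluronan synthesis, CREC proteins (the family of RCN1), class A scavenger receptors, smooth muscle and pericytes, blood endothelium, basal keratinocytes and T cells was paired, so these are not analysed here. The part of these cell types in the spread of the members was not tested.

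The depth of the libraries also moved with the score. RS3 had the most reads on genes (32252177) and AH3 the second most (29594787). Over 18 cows, the score correlated with log2 reads (r = 0.57, permutation p = 0.0142, adjusted over 3 relations 0.0213; rho = 0.45, permutation p = 0.0621, adjusted 0.0932), but r was 0.18 without AH3 and RS3, so it rests on them. Within diets r was 0.68 in AH, 0.26 in CS and 0.58 in RS. For the number of genes over 1 CPM, r was 0.56 (adjusted permutation p = 0.0213) and rho 0.63 (0.0199), and r was 0.43 without CS1 and CS2, the cows farthest from the median of that number. With the share of CPM in the 10 most abundant genes, which was 11.7% to 24.0%, r was -0.21 (permutation p = 0.405). The choice of members favoured genes high in AH3 and RS3, so these permutation p-values are not free of that choice, and nothing is concluded from them. The part of depth in the members' spread was not tested.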

How the data were processed

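RNA of rumen papillae of 18 cows was sequenced. Per the labels, the authors used TopHat2, HTSeq, edgeR and the bovine genome UMD3.1. The paper describes the removal of reads with several mapping hits, and the authors deposited CPM, scaled to all reads that fell on annotated genes. The labels' extraction text speaks of rectal tissue and a total RNA kit, where the paper describes rumen papillae and an mRNA kit. The analysis follows the paper, and the tissue and kit were not tested. No batch is named.

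In each cow, 100% of the CPM came out as whole reads at a tolerance of 0.02. On these reads the edgeR quasi-likelihood test called 1 gene when AH was set against CS, 1 when it was set against RS, and 0 between the straw and stover diets. Floors of 3 reads and Poisson intervals cover counting error only, since PCR reads are not independent molecules. A check for 1 library deposited as 2 samples found no same-diet pair that agreed within counting noise (chi-square per degree of freedom 40.6 to 316 over 45 pairs).

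Limma 3.58.1 (R 4.3.3) was fitted to log2(CPM + 0.5) of the genes that exceeded 1 CPM in 3 or more of the 6 cows of any diet (one term per diet, intensity trend), which understates changes of genes with few reads. The Benjamini-Hochberg adjustment covered 13284 genes. Alternatives used edgeR 4.0.16, DESeq2 1.42.0, other pseudocounts (0.1 and 1), filters, TMM scaling, a replicate block, the score as a covariate, z-scores, and the removal of each cow or member. Scripts were tested on simulated data. The score and its permutation tests were computed in Python 3.11.15 (scipy 1.17.1, numpy 2.4.6, matplotlib 3.10.9, pandas 2.3.3).

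The members and gene lists were chosen with earlier results of these data known. Named genes are the members, the 5 named genes with the highest and the 5 with the lowest r with the score, up to 4 examples of each list with the highest mean CPM, and S100A9 as the gene called. C7, C3, KRT36, DSG1 and PADI1 lie outside this rule and were picked after their values were seen. Gene names came from a supplementary list of the paper with 73 identifiers. Sequences are not used here.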

Additional observations from a re-analysis of the deposited data

Results flagged for a closer look

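In 9 of 18 groups of 6 cows (5 members and the score in 3 diets), the highest cow lay farther from the next than Dixon's 95% limit allows. Chance flags about 5% of groups, but that rate is no measure here, because the members share their cows and were chosen on ratios of means that AH3 and RS3 carried in part. The values are a description. In AH the cow was AH3 each time, at 192.5 CPM for EFEMP1 (next 60.8), 79.6 CPM for PCOLCE2 (next 14.8), 57.7 CPM for GFPT2 (next 10.1), 125.9 CPM for SCARA5 (next 22.2) and 100.4 CPM for RCN1 (next 41.6). In RS it was RS3, at 219 CPM for EFEMP1 (next 81.9), 129 CPM for PCOLCE2 (next 30.9), 68.9 CPM for GFPT2 (next 21.0) and 142 CPM for SCARA5 (next 35.7). No CS cow and no value of the score, which is on a log2 scale, passed the limit.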

How the results depend on the processing

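Of 705 alternative values of 24 results, 669 kept their direction and their size within the spread between cows or within 1.5 times a count, and 17 changed direction. That spread was wide, for the score 1.56 against differences of 0.71, 1.21 and -0.50. A fall of the score in AH less CS from 0.71 to 0.099 thus counted as kept. So did a fall of EFEMP1 in AH vs. CS from 0.821 to 0.124 with the score as a covariate. The number kept is therefore no measure of stability. The causes were not tested. The genes called in AH vs. CS numbered 1, and 0 with the 12 cows compared alone, 5 with DESeq2 and 1 to 2 with single cows left out. In AH vs. RS they numbered 1, and 7 with DESeq2, 1 to 5 with single cows left out (5 without RS6), and 0 without AH3 and RS3 or without cow 3 of each diet, both chosen after seeing the data. In RS vs. CS they numbered 0, and 1 with no filter and 0 to 6 with single cows left out (6 without RS6). No member was called in any of these fits. With the score as a covariate, GFPT2 (-0.159) and SCARA5 (-0.815) changed direction in AH vs. CS. So did EFEMP1 (-0.145) and SCARA5 (-0.595) in RS vs. CS, and EFEMP1 (0.269) and PCOLCE2 (0.051) in AH vs. RS. With single cows left out, the differences ran from -0.0536 to 1.09 for GFPT2 and -0.445 to 0.868 for SCARA5 in AH vs. CS, where SCARA5 was also -0.0644 without CS2. Without AH3 and RS3 together these 2 were again -0.0536 and -0.445, and without cow 3 of each diet 0.318 and 0.0308. In AH vs. RS they ran from -0.896 to 0.282 for EFEMP1, which was also 0.195 without AH4, from -1.08 to 0.203 for PCOLCE2, and from -0.182 to 0.434 for RCN1, which was also -0.142 without RS5. The score in AH less that in RS ran from -1.11 to 0.0589, with the highest value without RS3. The share of variance on one component was 95.5% without RCN1, 79.6% without AH3 and RS3 and 77.9% without cow 3 of each diet. In both of the last settings 6 of 10 pairs passed the threshold of the permutation test. Over 18 cows the 10 pairs are a description only, with r of 0.72 to 0.96. The choice of members favours all counts of pairs given here. The paper names a randomized complete block design for its other measurements, and neither it nor the labels say whether the cow numbers are its blocks. The 18 pairs of cows with the same number had correlations of their deviations of -0.48 to 0.71, 12 of them over 0.1, and 5 of 18 cows correlated best with a cow of their own number. A replicate block gave 1 call in AH vs. CS, 2 for AH vs. RS and 0 for RS vs. CS. With that block the 10 pairs had r of 0.576 to 0.916, again a description over 18 cows. GFPT2 and SCARA5 were not above 1 CPM in all 18 cows, so the filter that asks for this gave them no value.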

Other observations

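Cow 3 ranked first of its diet on the score in AH (3.13), CS (0.83) and RS (3.38), although in CS the next cow, CS5, had 0.82. Across all genes tested, the deviations of AH3 and RS3 from their diet means had a correlation of 0.71. It was the highest among the 18 pairs of cows with the same number on different diets, and the other 90 pairs of cows on different diets reached at most 0.67. These are correlations across genes, which are not independent replicates.

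Of the within-diet variance of the 13279 genes other than the members, the first 4 principal components held 41.0%, 17.8%, 8.33% and 6.97%. Their correlations with the score over the 18 cows were 0.62, 0.23, 0.40 and 0.53 in absolute value, so no one of these components matched it alone. The 2 genes most like the score carried no name in the sources used here, ENSBTAG00000021830 and ENSBTAG00000000310, both with an r of 0.97.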
